A study of Mus musculus with 10 samples.

Results

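The lipid droplet and triglyceride handling genes examined here were 10 genes chosen by name: Cidec, Plin2 and Plin3, which encode droplet coat proteins, Dgat1, Dgat2 and Awat1, which encode acyltransferases, Pnpla2 and Mgll, which encode cytosolic lipases, Lpl, which encodes a secreted lipase, and Lipa, which encodes a lysosomal lipase. All 10 were found among the 26173 genes of the table, and all 10 passed the filter on low values, as 11336 genes did. They were described in alveolar macrophages, which live in the airspace of the lung, of C57BL/6 mice labelled female and 16 weeks old.

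There were 5 groups. From the line in which Bach2, a gene for a transcription repressor, is floxed and Cre is driven by CD4 (labelled Bach2-floxed CD4cre) came 3 groups. In the knockout mice, a fraction whose surface phenotype was aberrant gave the aberrant-marker library, and a fraction whose surface phenotype was as in controls gave the normal-marker library. The control mice of that line gave the conditional control library. A germline Bach2 knockout and the wild type were the other groups. The labels do not say which alleles these control mice carry. CD4-driven Cre is active in T cells, so the macrophages of that line need not have lost Bach2 themselves, and both fractions were chosen by their surface markers. Values are FPKM, fragments per kilobase of transcript scaled to library depth, summed over the transcripts of a gene, from libraries made of 100 pg of RNA with 18 cycles of PCR.

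Triglyceride is stored in lipid droplets, which are cores of neutral lipid inside a single phospholipid layer with coat proteins on it. Diacylglycerol acyltransferases make the stored triglyceride, the cytosolic lipases release its fatty acids again, the secreted lipase frees fatty acids from lipoproteins outside the cell, and the lysosomal lipase does so for lipid taken up by endocytosis. Alveolar macrophages take up and break down surfactant, which is mostly lipid, and hold droplets when this load exceeds what they clear. Pparg, a nuclear receptor for lipids, is known to be needed for this cell type.

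Both samples of a group differed by little more than sampling noise, with a correlation of 0.993 to 0.998 on the log2(FPKM + 1) scale within groups and of 0.685 to 0.853 between groups. They were therefore counted as 2 runs of 1 library. No difference could be checked in replicates, and p-values are not given. The depth, estimated from the smallest values, was about 7.46 to 9.32 M fragments per run, and 1 read on a transcript of the 10 genes was worth about 0.0261 to 0.130 FPKM. Bach2 was at 0.0203 FPKM in the aberrant-marker, 0.0571 in the normal-marker, 0.0186 in the conditional control and 0.0292 in the germline knockout library and at practically 0 in the wild type, too low in every library to check the genotypes. The germline knockout and wild-type libraries went against their label of female mice, with the Y-linked gene Eif2s3y at 39.9 and 60.8 FPKM against 0.107 FPKM or less in the other 3 libraries. Of 15 alveolar macrophage markers, at 1 FPKM or more were 13 in the aberrant-marker library, 13 in the germline knockout and 15 in each other library. By the rule of size given below, 9 of them were lower in the aberrant-marker library than in the conditional control, and 6 were lower and 1 higher in the germline knockout than in the wild type. Of 13 dendritic cell markers, 11 were at 1 FPKM or more in the aberrant-marker library (5590 FPKM summed) and 3 to 6 in the others (35.9 to 300.1 FPKM summed), and of 11 T cell markers, 10 were in the aberrant-marker library (315.4 FPKM summed) and 1 or 2 in the others (66.6 to 455.6 FPKM summed). Most of that sum in the 3 other libraries of 268.5 FPKM or more was Cd2, which was lower in the aberrant-marker library (45.7 FPKM, against 329.6 FPKM in the conditional control) and in the germline knockout (24.9 FPKM, against 455.1 FPKM in the wild type). Cd3e and Cd3g, of the T cell receptor complex, were at 17.7 and 24.1 FPKM in the aberrant-marker library and listed at 0 in the others, and 0 of 5 B cell markers reached 1 FPKM in any library. Of 11 markers of monocyte-derived and interstitial macrophages, 9 were at 1 FPKM or more in the germline knockout (571.2 FPKM summed), against 3 in the wild type (278.9 FPKM), and 9 in the aberrant-marker library (1045 FPKM), against 7 in the conditional control (258.5 FPKM). In the aberrant-marker library 10 of 13 dendritic cell markers were higher than in the conditional control. Of 10 T cell markers compared 4 were higher and 1 lower there, and of 9 monocyte-derived and interstitial macrophage markers 4 were higher and 1 lower. In the germline knockout 5 of those 9 were higher than in the wild type and 0 lower, and 2 of 13 dendritic cell markers were higher. Of the 10 T cell markers 1 was higher and 1 lower. The part of other cells in the differences given below was not tested.

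The words higher, lower, rose and fell stand for a call, made where 2 libraries differed by at least 2 units of log2(FPKM + 1), in the means and in every pairing of their runs, and the higher library had at least 20 FPKM. This scale understates the change of genes with low values. The wild-type and conditional control libraries served as a yardstick: their absolute difference had a 95th percentile of 2.25 log2 units over 4370 genes at 20 FPKM or more. These libraries come from different lines and differ in Y-linked transcripts, with Eif2s3y at 60.8 FPKM in the wild type and at 0 in the conditional control. Line, sex and library therefore cannot be told apart in the yardstick, nor where 1 control library stands in for the other. A bulk library cannot tell fewer cells of a type from less RNA per cell.

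The stretches before the transcription starts of Cidec, of Plin2 and of Awat1 are shown because Cidec and Plin2 are the droplet coat genes with the widest and the narrowest range over the libraries, and Awat1 moved apart from its relatives. Promoters of 7 of the 10 genes, with 9 starts, were matched by gene symbol in RefSeq on GRCm38.p6. Each line gives the 250 bases before a start, 5′ to 3′ on the strand of the gene.
Cidec, outer start, chr6:113435761-113436010, minus strand: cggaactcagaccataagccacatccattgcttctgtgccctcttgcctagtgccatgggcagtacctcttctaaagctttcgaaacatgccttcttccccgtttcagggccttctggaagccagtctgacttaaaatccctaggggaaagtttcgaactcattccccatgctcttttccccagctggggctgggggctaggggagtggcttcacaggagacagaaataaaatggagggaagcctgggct
Cidec, inner start, chr6:113434765-113435014, minus strand: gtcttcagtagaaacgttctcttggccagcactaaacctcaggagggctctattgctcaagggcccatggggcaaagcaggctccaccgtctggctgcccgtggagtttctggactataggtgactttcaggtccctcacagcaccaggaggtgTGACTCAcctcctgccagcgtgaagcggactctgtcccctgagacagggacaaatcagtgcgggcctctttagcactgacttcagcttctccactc
Plin2, chr4:86670060-86670309, minus strand: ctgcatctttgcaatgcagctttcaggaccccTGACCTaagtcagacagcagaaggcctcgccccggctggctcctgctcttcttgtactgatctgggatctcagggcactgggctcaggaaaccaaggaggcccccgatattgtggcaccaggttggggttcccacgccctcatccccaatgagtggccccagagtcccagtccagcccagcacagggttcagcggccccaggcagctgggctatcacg
Awat1, chrX:100571997-100572246, plus strand: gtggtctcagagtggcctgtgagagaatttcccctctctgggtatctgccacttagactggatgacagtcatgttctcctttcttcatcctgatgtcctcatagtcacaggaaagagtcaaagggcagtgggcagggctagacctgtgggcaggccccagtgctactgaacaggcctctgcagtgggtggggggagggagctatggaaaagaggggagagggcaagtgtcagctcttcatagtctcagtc

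Capitals mark matches, on either strand, to TGACTCA, the core shared by AP-1 sites and the longer sites of Bach proteins, to AGGTCA, the half-site of nuclear receptors, or to CACGTG, the E-box. TGACTCA was found before 1 of the 9 starts, the inner start of Cidec, 96 bases upstream, and before 4.46% of 32851 starts of all genes. AGGTCA was found before 1 of the 9, that of Plin2, as its reverse complement TGACCT, and before 14.0% of all starts. CACGTG was found before 1 of the 9, a start of Mgll, and before 6.02% of all. The direct repeat that Pparg and Rxra bind, 2 copies of AGGTCA with 1 base between them, was found before 0 of the 9 and before 0.0335% of all. A match is a description of the letters only, and binding was not measured.

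The aberrant-marker library had 4 of the 10 genes lower than in the conditional control and 0 higher. Cidec, Lpl, Lipa and Pnpla2 fell, so that a droplet coat gene, the secreted lipase, the lysosomal lipase and the first cytosolic lipase were lower. The difference of Pnpla2, at -2.10 log2 units, was within the yardstick of 2.25. Plin2, Plin3, Dgat1, Dgat2, Mgll and Awat1 did not pass. Of all 11336 genes 3.76% were called lower and 4.09% higher, 7.85% together, and of the 4682 genes at 20 FPKM or more in either library 19.0% were called. The median difference of the 10 genes was -1.94 log2 units, beside -0.03 over those 4682 genes.

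The germline knockout library had 4 of the 10 genes lower than in the wild type and 0 higher. They were Cidec, Dgat1, Dgat2 and Lpl, a droplet coat gene, both diacylglycerol acyltransferases and the secreted lipase. Lipa, Pnpla2, Plin2 and Plin3 differed by 0.14 log2 units or less. Of all genes compared 3.36% were called lower and 2.73% higher, 6.1% together, and of 4451 genes at 20 FPKM or more 15.5% were called. The median of the 10 genes was -0.11 log2 units, beside -0.14 over those 4451 genes. Cidec and Lpl were called lower in both lines.

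**Figure D1:**
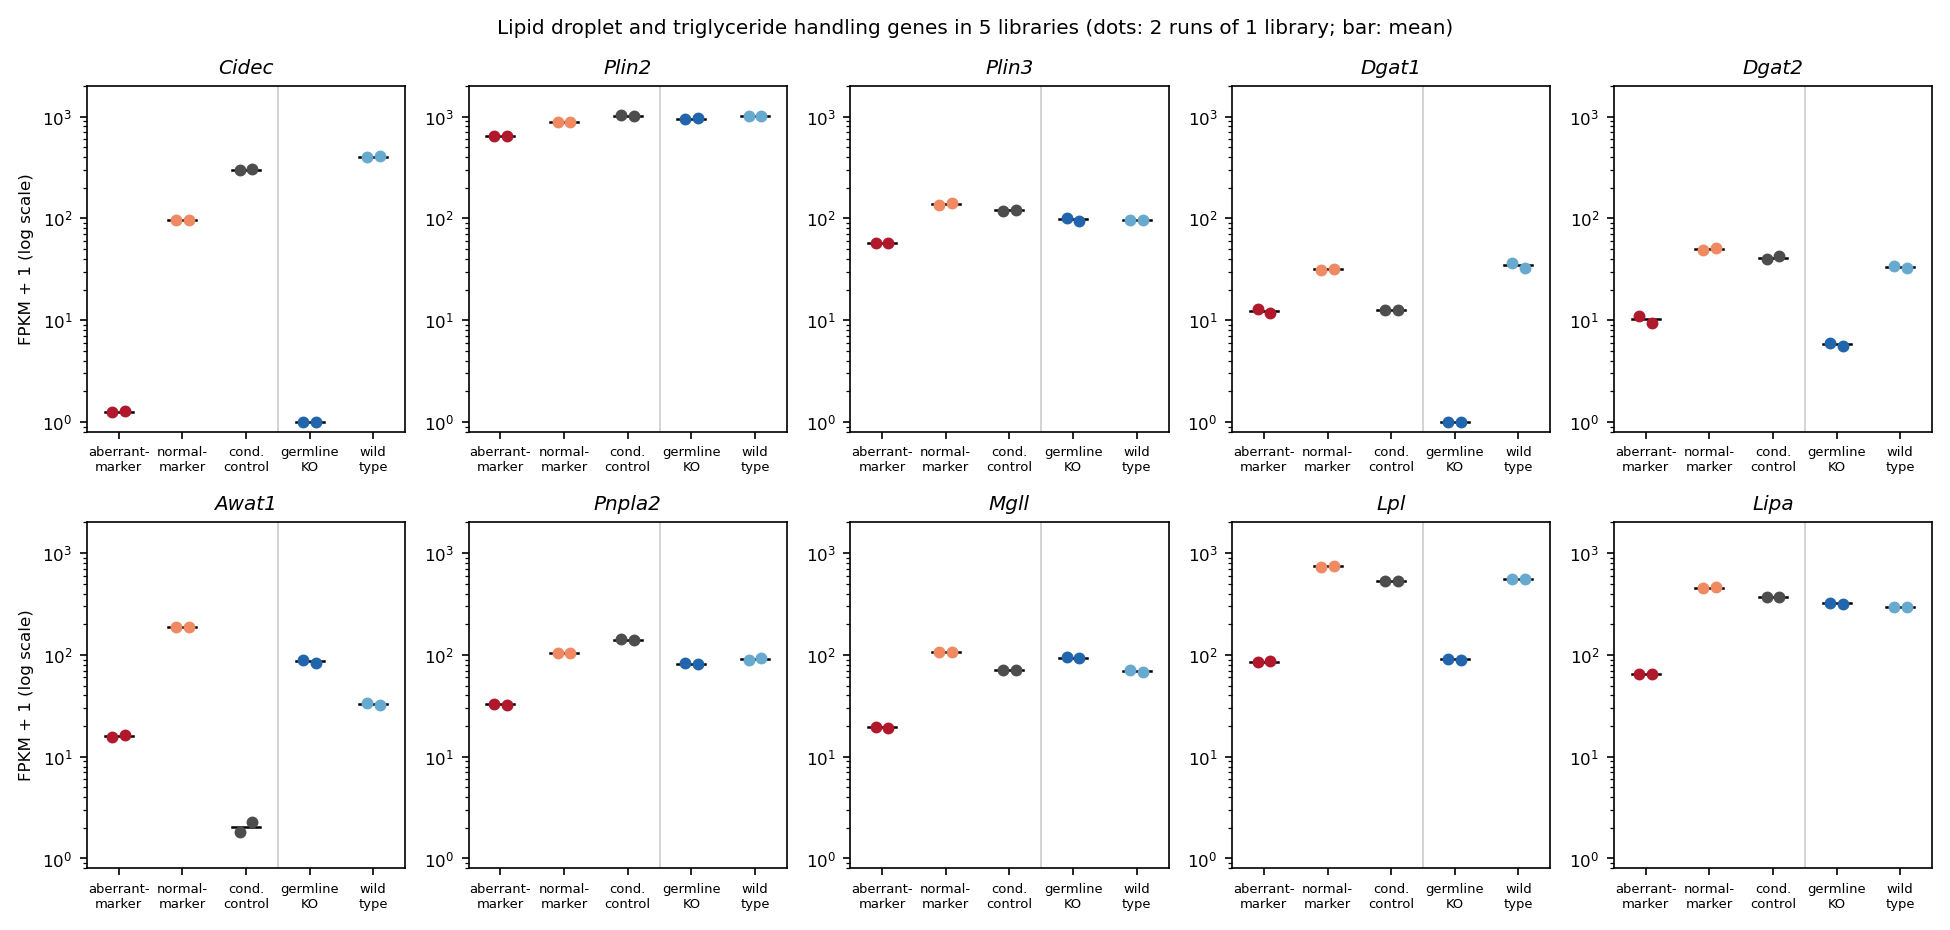
Levels of the 10 genes, as FPKM + 1 on a log scale, in the aberrant-marker, normal-marker, conditional control, germline knockout and wild-type libraries; dots are the 2 runs of a library and bars their mean. Cidec stands near the bottom of its axis in the aberrant-marker and germline knockout libraries, Plin2 has means between 642.6 and 1022 FPKM in all 5, and Awat1 is lowest in the conditional control.

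Cidec (Entrez 14311) encodes a protein that sits where droplets touch and lets lipid pass from the smaller to the larger one, and in adipocytes it guards the stored triglyceride. It was at 0.263 and 0.269 FPKM in the 2 runs of the aberrant-marker library, against 295.7 and 302.8 FPKM in the conditional control. The aberrant-marker values stand for about 3.36 and 3.73 reads. Cidec was thus all but undetected in the aberrant fraction and above 97.1% of the genes compared in the control, with a difference of -7.89 log2 units (-7.91 to -7.87 over run pairings). The normal-marker library held 94.4 and 94.8 FPKM, which is -1.65 log2 units from the control and short of the rule. Both germline knockout runs listed Cidec at 0, against 402.9 and 406.2 FPKM in the wild type, a difference of -8.66 on the scale with 1 FPKM added.

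The 2 transcripts of Cidec had similar proportions in the 3 libraries where the gene was abundant. The transcript NM_178373.3 held 60.7% of the FPKM of the gene in the normal-marker, 60.3% in the conditional control and 62.6% in the wild-type library. The other, NM_001301295.1, held 39.3%, 39.7% and 37.4% in the same libraries. The proportions are estimates, because reads that match both transcripts cannot be assigned to 1 of them.

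Other genes abundant in the wild type were also listed at 0 in the germline knockout. Of 3674 genes at 20 FPKM or more in the wild type, 50 were listed under 0.001 FPKM in both germline knockout runs, which is 1.36%, and 11 were in the conditional control, which is 0.299%. Cidec and Dgat1 were among the 50. These 2 genes were not at 0 in any other library. Of 2295 genes at 20 FPKM or more in all 4 other libraries, a set that holds neither Cidec nor Dgat1, 0 were listed at 0 in the germline knockout.

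Plin2 (Entrez 11520) encodes the droplet coat protein of most cell types outside fat tissue, and it was the most abundant of the 10 genes in all 5 libraries. It was at 639.3 and 646.0 FPKM in the aberrant-marker, 878.6 and 883.6 in the normal-marker, 1030 and 1013 in the conditional control, 938.0 and 973.3 in the germline knockout and 1003 and 1004 FPKM in the wild-type library. Its span over the library means, 0.67 log2 units, was the smallest of the 10. The difference from the conditional control was -0.67 in the aberrant-marker library, and that of the germline knockout from the wild type was -0.07. Of its 2 transcripts, XM_006537557.1 held between 88.8% of the FPKM (wild type) and 92.0% (conditional control). NM_007408.3 was between 66.7 FPKM (aberrant-marker) and 112.4 FPKM (wild type). The rank of Plin2, its ratios to Cidec and Plin3 and the share of the coat genes given below rest on the estimate for XM_006537557.1.

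Plin3 (Entrez 66905) encodes a coat protein that is soluble in the cytosol and moves to droplets as they form. It was at 56.9 and 56.2 FPKM in the aberrant-marker library, against 118.6 and 120.9 FPKM in the conditional control. The normal-marker library was at 135.4 and 139.6 FPKM. Plin3 was thus lowest in the aberrant fraction, by 1.07 log2 units relative to the control, which is under the rule. The germline knockout had 100.3 and 93.9 FPKM, against 95.4 and 96.2 FPKM in the wild type, so that the runs overlapped.

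Among the 3 coat genes the balance therefore shifted with Cidec. Plin2 exceeded Cidec 9.31-fold in the normal-marker, 3.41-fold in the conditional control and 2.48-fold in the wild-type library. No ratio is given for the other 2 libraries, where Cidec was at a few reads or at 0. Plin2 exceeded Plin3 by 11.4-fold in the aberrant-marker, 6.41-fold in the normal-marker, 8.53-fold in the conditional control, 9.84-fold in the germline knockout and 10.5-fold in the wild-type library.

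Dgat1 (Entrez 13350) encodes an enzyme of the endoplasmic reticulum that adds the last fatty acid to triglyceride. Both germline knockout runs listed it at 0, against 35.7 and 31.8 FPKM in the wild type. The wild-type values stand for about 611 and 529 reads. Dgat1 was therefore present in one library and not seen in the other, with a difference of -5.12 log2 units with 1 FPKM added. In the aberrant-marker library it was at 12.0 and 10.9 FPKM, against 11.7 and 11.5 FPKM in the conditional control, and these runs overlapped. The normal-marker library stood at 30.0 and 31.1 FPKM, above that control by 1.32 log2 units, which is under the rule. The wild type also exceeded the conditional control by 1.46 log2 units, so the control libraries differ by as much. Against the conditional control in place of the wild type, the difference of Dgat1 in the germline knockout was not called, at -3.66 log2 units, since both libraries were under 20 FPKM.

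Dgat2 (Entrez 67800) encodes an enzyme that makes the same bond as Dgat1 but is unrelated to it in sequence. It was at 10.1 and 8.31 FPKM in the aberrant-marker library, against 38.8 and 41.5 FPKM in the conditional control. The difference was -2.01 log2 units, and it did not pass because the run pairings ranged between -2.19 and -1.84. The normal-marker library was at 48.1 and 50.3 FPKM, close to its control. In the germline knockout Dgat2 fell to 5.01 and 4.58 FPKM, against 33.2 and 31.3 FPKM in the wild type, a difference of -2.52 log2 units. The aberrant-marker and germline knockout libraries were below the others in both runs of each. The gap between the wild type and the aberrant-marker library, neighbours in the order of means, was 1.70 log2 units, within the yardstick of 2.25.

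Awat1 (Entrez 245533) encodes a wax synthase, a member of the Dgat2 family that esterifies fatty alcohols, known in humans from the sebaceous gland. It was at 14.7 and 15.2 FPKM in the aberrant-marker, 185.6 and 187.8 in the normal-marker and 0.831 and 1.27 FPKM in the conditional control library. The levels were 88.4 and 81.9 FPKM in the germline knockout, against 32.9 and 31.1 FPKM in the wild type. The conditional control stood alone at about 1 FPKM while the 4 other libraries held 14.9 FPKM or more. The rise in the normal-marker library was 6.52 log2 units, and the wild type exceeded the same control by 4.01 log2 units, so the control libraries were themselves called different. Awat1 was the only gene of the 10 for which they were, where 0.935% of all genes were called higher in the wild type and 1.17% lower, 2.11% together. The differences of 2.96 log2 units in the aberrant-marker library and of 1.39 in the germline knockout did not pass, the first because both libraries were under 20 FPKM. Against the wild type, Awat1 in the aberrant-marker library was at -1.05 log2 units, so its direction depended on which control was used. Other genes of the sebaceous gland were not present with it: Awat2, Mogat1, Elovl3 and Mc5r were listed at 0 in all 5 libraries, and Soat1, which esterifies cholesterol, was the only 1 of 8 such markers at 1 FPKM or more.

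The 3 acyltransferases did not keep their proportions. Awat1 exceeded Dgat2 by 1.62-fold in the aberrant-marker, 3.80-fold in the normal-marker and 17.8-fold in the germline knockout library. In the wild type the pair were at 32.0 and 32.3 FPKM. Dgat2 exceeded Awat1 by 38.2-fold in the conditional control. Awat1 was 85.2 of the 90.0 FPKM summed over the 3 genes in the germline knockout.

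Pnpla2 (Entrez 66853) encodes adipose triglyceride lipase, which takes the first fatty acid from stored triglyceride. It fell to 32.3 and 31.4 FPKM in the aberrant-marker library, against 141.0 and 139.3 FPKM in the conditional control, a difference of -2.10 log2 units. The normal-marker library was between them, at 103.8 and 102.4 FPKM. The germline knockout had 81.5 and 80.9 FPKM, against 87.2 and 92.0 FPKM in the wild type, without a call. The difference of the aberrant-marker library from the conditional control was within the yardstick of 2.25 log2 units. It was not called against the wild type, where it was -1.46 log2 units, or after scaling by the median of ratios, where it was -2.02 log2 units, with a pairing short of the rule.

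Mgll (Entrez 23945) encodes monoacylglycerol lipase, which completes the release of fatty acids. It was at 18.7 and 18.1 FPKM in the aberrant-marker library, against 70.5 and 69.3 FPKM in the conditional control. This difference of -1.87 log2 units did not pass, while that from the normal-marker library, which held 106.7 and 106.5 FPKM, was called at -2.47. Mgll was at 93.4 and 93.1 FPKM in the germline knockout, against 69.5 and 67.6 FPKM in the wild type. Both knockout runs were above both wild-type runs, by 0.44 log2 units, which is under the rule.

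The transcripts of Mgll differed between the control libraries. The transcript NM_001166251.1 held 24.3% of the FPKM of the gene in the aberrant-marker, 22.1% in the normal-marker and 58.0% in the conditional control library. It held 14.3% in the germline knockout and 1.55% in the wild type. The transcript NM_011844.4 held most of the rest in each. As for Cidec, these proportions are estimates, because reads that match both transcripts cannot be assigned to 1 of them. In the aberrant-marker library NM_001166251.1 was at 6.69 FPKM in one run and 2.26 FPKM in the other, so its share there is uncertain. With NM_011844.4 alone, Mgll was at -1.04 log2 units in the aberrant-marker library and at 1.47 in the normal-marker library against the conditional control, where the sums over transcripts gave -1.87 and 0.60. The wild type was then at 1.17 log2 units from the conditional control, where the sums gave -0.03. The conditional control was the only library in which NM_001166251.1 exceeded NM_011844.4, at 39.7 and 41.4 FPKM against 30.8 and 27.9 FPKM. An exon of Mgll shares 152 bases with Gm26588 on the other strand, and Gm26588 has no entry in the table. The protocol does not say that strand was kept, so reads there cannot be assigned to a strand.

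**Figure D2:**
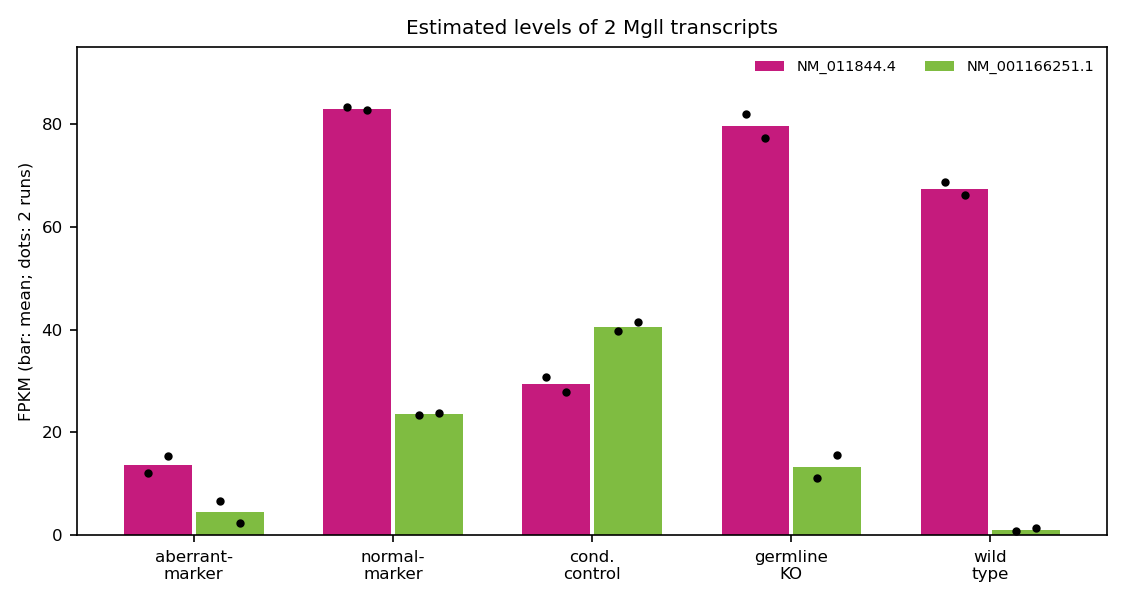
Estimated FPKM of 2 transcripts of Mgll in the 5 libraries; bars are the means and dots the 2 runs. NM_001166251.1 exceeds NM_011844.4 in the conditional control (40.6 and 29.4 FPKM) and is at 1.06 FPKM in the wild type.

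Lpl (Entrez 16956) encodes lipoprotein lipase, which works outside the cell on triglyceride of lipoproteins. It fell to 84.3 and 86.0 FPKM in the aberrant-marker library, against 526.9 and 532.5 FPKM in the conditional control. In the germline knockout it fell to 89.9 and 89.0 FPKM, against 556.8 and 561.1 FPKM in the wild type. The pairs of libraries nearly coincide: the differences were -2.62 and -2.63 log2 units. The normal-marker library held the most, 735.7 and 744.9 FPKM, which is 0.48 log2 units above the control. Lpl was called lower in the aberrant-marker library against the wild type too (-2.70 log2 units), and in the germline knockout against the conditional control (-2.55).

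Lipa (Entrez 16889) encodes lysosomal acid lipase, which breaks down cholesterol esters and triglyceride that reach the lysosome. It fell to 63.5 and 64.3 FPKM in the aberrant-marker library, against 373.0 and 369.4 FPKM in the conditional control, a difference of -2.52 log2 units. The normal-marker library was at 450.4 and 460.0 FPKM. Lipa was at 320.9 and 317.3 FPKM in the germline knockout, against 294.9 and 294.6 FPKM in the wild type. The germline knockout runs were above the wild-type runs by 0.11 log2 units, where Lpl of the same library was lower. Lpl exceeded Lipa by 1.33-fold in the aberrant-marker, 1.63-fold in the normal-marker, 1.43-fold in the conditional control and 1.90-fold in the wild-type library. Lipa exceeded Lpl by 3.57-fold in the germline knockout.

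**Figure D3:**
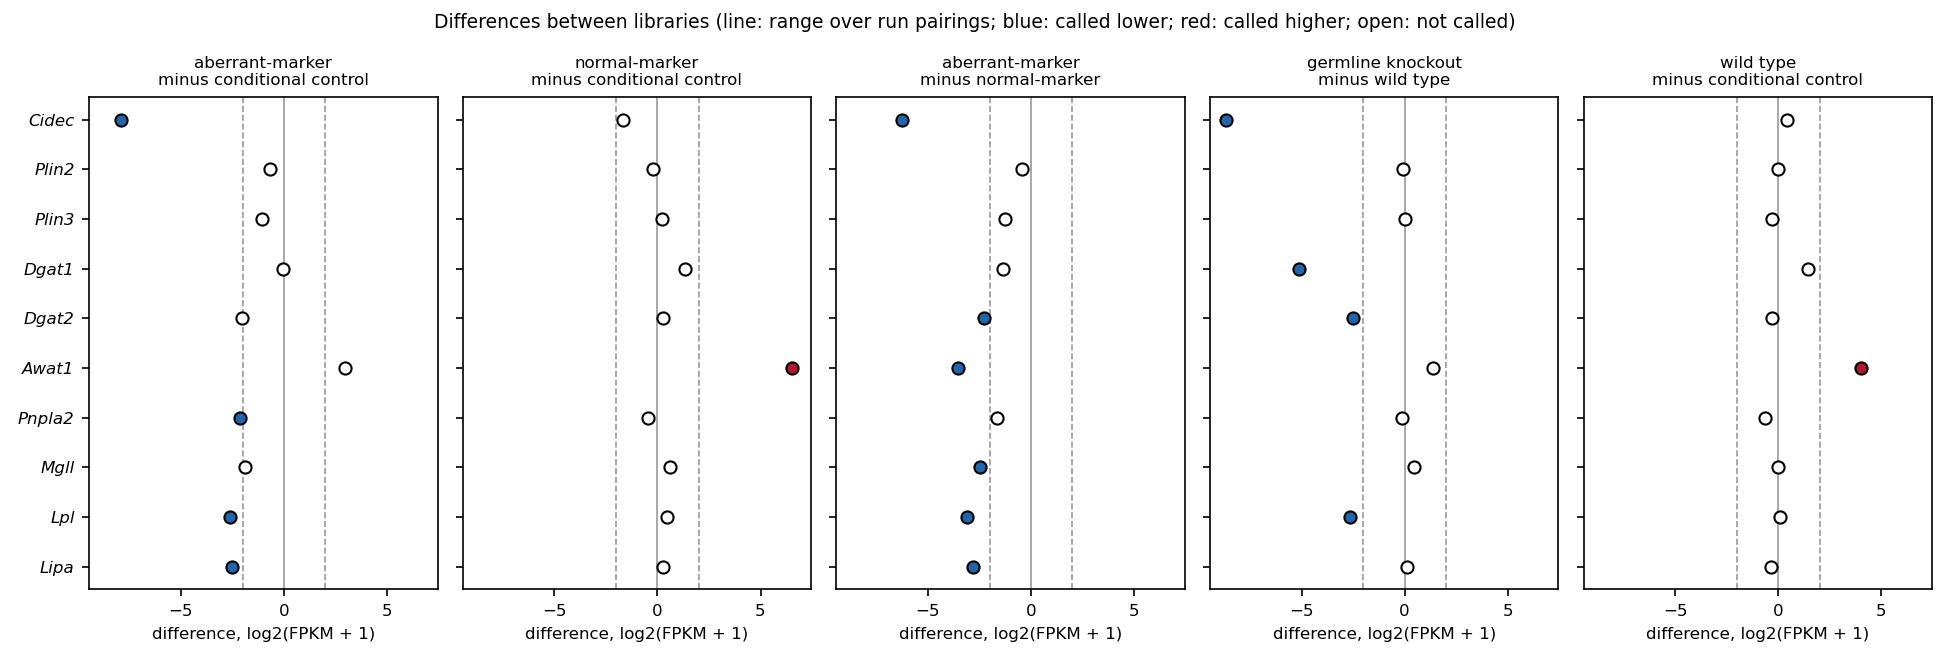
Differences of the 10 genes between libraries in log2(FPKM + 1), with lines for the range over run pairings, often hidden by the dot, and dashed lines at 2 units. Blue dots were called lower and red ones higher; 4 genes are blue in the aberrant-marker library against the conditional control and 4 in the germline knockout against the wild type, and Cidec and Lpl are in both.

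Within the conditional knockout, 6 of the 10 genes were lower in the aberrant-marker than in the normal-marker library, where 3.26% of all genes were called lower and 4.02% higher, 7.28% together. They were Cidec (-6.24 log2 units), Awat1 (-3.56), Lpl (-3.11), Lipa (-2.81), Mgll (-2.47) and Dgat2 (-2.30). Pnpla2, Dgat1, Plin3 and Plin2 differed in the same direction without passing, by -1.67, -1.34, -1.27 and -0.45 log2 units. The median of the 10 was -2.39 log2 units, beside 0.07 over 4602 genes at 20 FPKM or more in either library, of which 17.9% were called. The direction was negative for all 10 genes.

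In the normal-marker library 1 gene of the 10 was called against the conditional control, Awat1, which was higher. Of all genes 0.935% were called higher and 0.838% lower, 1.77% together, and of those at 20 FPKM or more 4.70% were called. The remaining 9 of the 10 genes lay between -1.65 log2 units for Cidec and 1.32 for Dgat1. Their levels were close to those of the control for Plin2, Plin3, Dgat2 and Lipa, with differences of 0.29 log2 units or less in size. Both fractions are set against the same conditional control library, and the 3 comparisons within that line share libraries.

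Between neighbours in the order of library means, few gaps exceeded both the runs and the yardstick of 2.25 log2 units. For Cidec this gap lay between the normal-marker and the aberrant-marker library, at 6.24. For Dgat1 it lay between the aberrant-marker library and the germline knockout, at 3.64, and for Awat1 between the aberrant-marker library and the conditional control, at 2.96. For Lpl it lay between the conditional control and the germline knockout, at 2.55. For the 6 other genes, and between all other neighbours, no gap was larger than the yardstick.

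Summed over the 10 genes, the level was 932.0 and 936.7 FPKM in the 2 runs of the aberrant-marker, 2769 and 2801 in the normal-marker and 2607 and 2602 FPKM in the conditional control library. The sum was 1717 and 1734 FPKM in the germline knockout, against 2612 and 2616 FPKM in the wild type. The aberrant-marker library held the least, and the sums of the control libraries of both lines were close. The coat genes took 74.9% of the sum in the aberrant-marker library, through Plin2, against 55.3% in the conditional control. Lpl took 9.11% there, against 20.3% in the control, and 5.18% in the germline knockout, against 21.4% in the wild type.

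**Figure D4:**
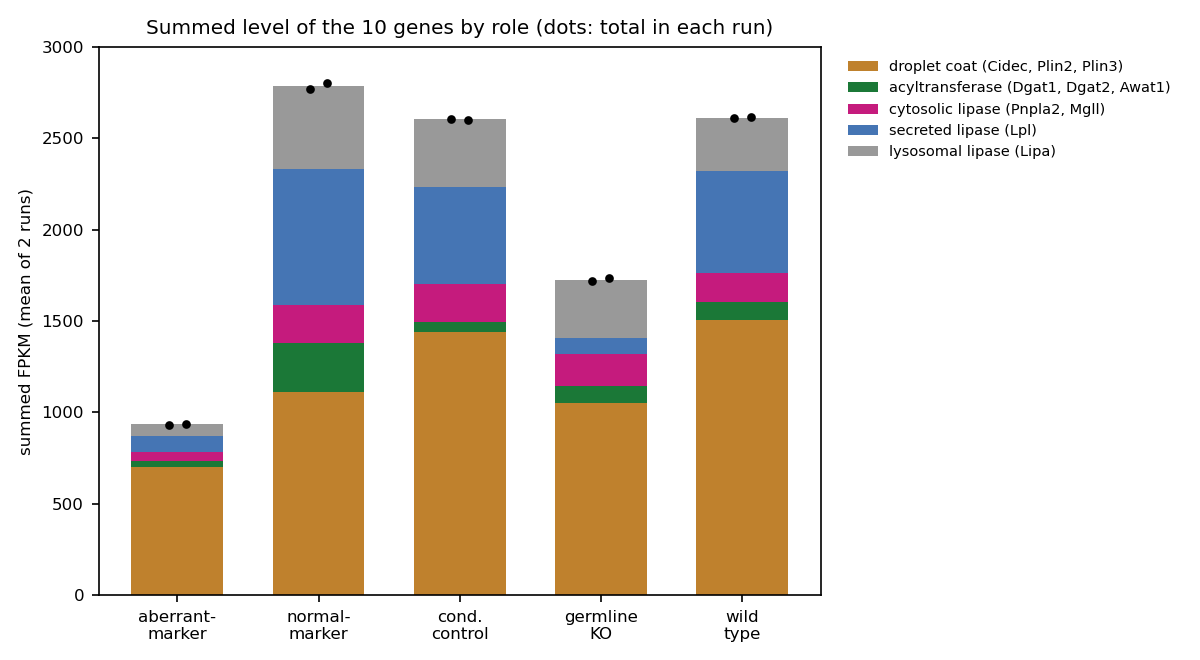
Summed FPKM of the 10 genes by role in the 5 libraries, as stacked bars from 0, with dots for the total in each run. The aberrant-marker bar is the lowest at 934.3 FPKM and that of the germline knockout is at 1726 FPKM, against 2604 FPKM in the conditional control and 2614 FPKM in the wild type; the blue part for Lpl shrinks in both.

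The genes whose profiles over the 5 libraries lay nearest to each member were sought among 5344 other genes with at least 20 FPKM in some library, by the root mean square distance of their centred log2(FPKM + 1) values. Nearest to Cidec were the neuropeptide gene Gal (0.20 log2 units), the ribonuclease gene Ear1 (0.45) and Siglec5 (0.54), a sialic acid receptor gene. Ear1 and Siglec5 are among the 15 alveolar macrophage markers counted above. Gal, Ear1 and Siglec5 were all at 2.27 FPKM or less in the aberrant-marker and germline knockout libraries and at 94.1 FPKM or more in the others. Nearest to Lpl were Plet1 (0.14), Akr1b3 (0.23) and Asf1b (0.25), and nearest to Dgat2 were Ccdc80 (0.15), Mgst3 (0.20) and Atp2c1 (0.21). Dgat1 had Zmynd19 (0.30), Hdac5 (0.48) and Me2 (0.49) nearest to it. The glutathione transferase gene Gstm1 was nearest to both Lipa (0.07) and Mgll (0.17), followed by Idh3a (0.15) and Lonp2 (0.16) for Lipa and by Mecr (0.18) and Lgals9 (0.18) for Mgll. Pnpla2 had Mpi (0.06), Tnfaip8l2 (0.09) and Lamtor2 (0.10) nearest. Awat1 had no close neighbour, with the growth factor gene Igf1 at 0.75, Ino80b at 0.91 and Cited4 at 1.01. Each distance rests on 5 libraries.

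Other genes of the pathway were taken from 5 lists, of which 101 of 104 entries were in the table and 74 genes were compared. In the aberrant-marker library 4 were higher and 7 lower than in the conditional control, with a median of -0.38 log2 units. These are 14.9% of the 74, beside 7.85% of all genes and 19.0% of those at 20 FPKM or more. In the germline knockout 1 was higher and 4 lower than in the wild type, with a median of -0.02. These are 6.76% of the 74, beside 6.1% of all genes and 15.5% of those at 20 FPKM or more, so the share called is near that of all genes. By this rule of size 0 of the 74 were called between the wild type and its counterpart of the conditional line. Of all genes 2.11% were, and of those at 20 FPKM or more 5.47%. Some of the 74 differed by over 2 log2 units in either direction with both libraries under 20 FPKM, such as Hilpda (3.65) and Ddhd2 (-2.21). In the normal-marker library 1 gene was lower than in the conditional control, which is 1.35% of the 74, beside 1.77% of all genes. That gene was Agpat2, an acyltransferase of triglyceride and phospholipid synthesis, at 6.13 against 54.2 FPKM, and it was at 20.1 FPKM in the wild type.

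Of 12 genes of droplet coats and assembly, 1 was higher and 1 lower in the aberrant-marker library. Pcyt1a, an enzyme of phosphatidylcholine synthesis, rose to 32.2 FPKM, against 3.20 FPKM in the conditional control. Cideb, a relative of Cidec, was listed at 0, against 24.5 FPKM. Cideb fell in the germline knockout, to 3.67 FPKM, against 26.8 FPKM in the wild type, and Fitm2, a gene for droplet formation at the endoplasmic reticulum, was listed at 0, against 21.8 FPKM. Abhd5, the coactivator of adipose triglyceride lipase, was at 14.1 FPKM in the aberrant-marker, 64.4 in the normal-marker and 47.5 FPKM in the conditional control library, and at 17.0 FPKM in the germline knockout, against 55.9 FPKM in the wild type. Of these, the difference between the 2 fractions of the conditional knockout was called for Abhd5. That difference, at -2.11 log2 units, was within the yardstick. Hilpda, an inhibitor of the same lipase, was at 5.82 FPKM in the aberrant-marker library and listed at 0 in the conditional control, and at 34.2 FPKM in the germline knockout, against 11.6 FPKM in the wild type, with no call. G0s2, another such inhibitor, had 0.248 FPKM in the conditional control and was listed at 0 elsewhere.

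Of 14 genes of triglyceride synthesis, 1 was higher and 1 lower in the aberrant-marker library. Lpin1, a phosphatidate phosphatase that makes diacylglycerol, fell to 5.85 FPKM, against 75.6 FPKM in the conditional control. It also fell in the germline knockout, to 2.24 FPKM, against 37.4 FPKM in the wild type. Lpin1 was the only gene called of this list in the germline knockout. Lpcat1, an acyltransferase that remodels phosphatidylcholine, rose to 85.8 FPKM in the aberrant-marker library, against 1.16 FPKM in the conditional control. Soat1 was at 59.2 FPKM in the aberrant-marker library and 81.6 FPKM in the conditional control, and at 188.8 FPKM in the germline knockout, against 80.6 FPKM in the wild type, with no call.

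Of 17 lipases and cofactors, 2 were lower in the aberrant-marker library and 1 in the germline knockout. Angptl4, a secreted inhibitor of lipoprotein lipase, fell in both. It was at 8.18 FPKM in the aberrant-marker library, against 82.4 FPKM in the conditional control, and at 9.92 FPKM in the germline knockout, against 153.9 FPKM in the wild type. Transcripts of the lipase and of its inhibitor were thus low in the same libraries. Abhd12, a serine hydrolase of lysophospholipids, fell to 69.6 FPKM in the aberrant-marker library, against 324.8 FPKM in the conditional control. This difference of Abhd12, at -2.21 log2 units, was within the yardstick. Lipe, hormone-sensitive lipase, was at 10.5 FPKM in the aberrant-marker library and at 3.00 FPKM or less in the others.

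Of 13 genes of fatty acid uptake and activation, 2 were higher and 1 lower in the aberrant-marker library, and 1 was higher in the germline knockout. Fabp5, a fatty acid binding protein, rose to 1355 FPKM in the aberrant-marker library, against 332.6 FPKM in the conditional control. In the germline knockout it rose to 1526 FPKM, against 334.7 FPKM in the wild type. These differences of Fabp5, at 2.02 and 2.19 log2 units, were both within the yardstick. Slc27a3, of the fatty acid transport protein family, was at 139.1 FPKM in the aberrant-marker library, against 0.0871 FPKM in the conditional control, and Olr1, a receptor for oxidised lipoprotein, was at 2.38 against 58.4 FPKM. Cd36, a fatty acid receptor, was at 192.7 FPKM in the aberrant-marker library and 132.8 FPKM in the conditional control, and at 501.9 FPKM in the germline knockout, against 187.7 FPKM in the wild type, without a call. Fabp4, another binding protein, was at 83.7 FPKM in the aberrant-marker library and 103.8 FPKM in the conditional control, and at 181.4 FPKM in the germline knockout and 144.6 FPKM in the wild type. Acsl1, which activates fatty acids, lay between 15.5 and 23.4 FPKM in all 5 libraries.

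Of 18 lipid-sensing regulators, 2 were lower in the aberrant-marker library and 0 were called in the germline knockout. Rxra, the partner receptor of Pparg, fell to 1.88 FPKM in the aberrant-marker library, against 55.6 FPKM in the conditional control, and Srebf1, a regulator of fatty acid synthesis, fell to 3.46 FPKM there, against 37.0 FPKM in the control. Rxra was at 22.6 FPKM in the germline knockout, against 47.4 FPKM in the wild type, and Srebf1 was at 18.2 against 49.8 FPKM. Pparg was at 31.2 FPKM in the aberrant-marker library and 95.3 FPKM in the conditional control, and at 79.3 FPKM in the germline knockout, against 153.0 FPKM in the wild type. Nr1h3, the liver X receptor of macrophages, was at 20.6 FPKM in the aberrant-marker, 111.1 in the normal-marker and 50.5 FPKM in the conditional control library, and it was called lower in the aberrant-marker than in the normal-marker library.

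**Figure D5:**
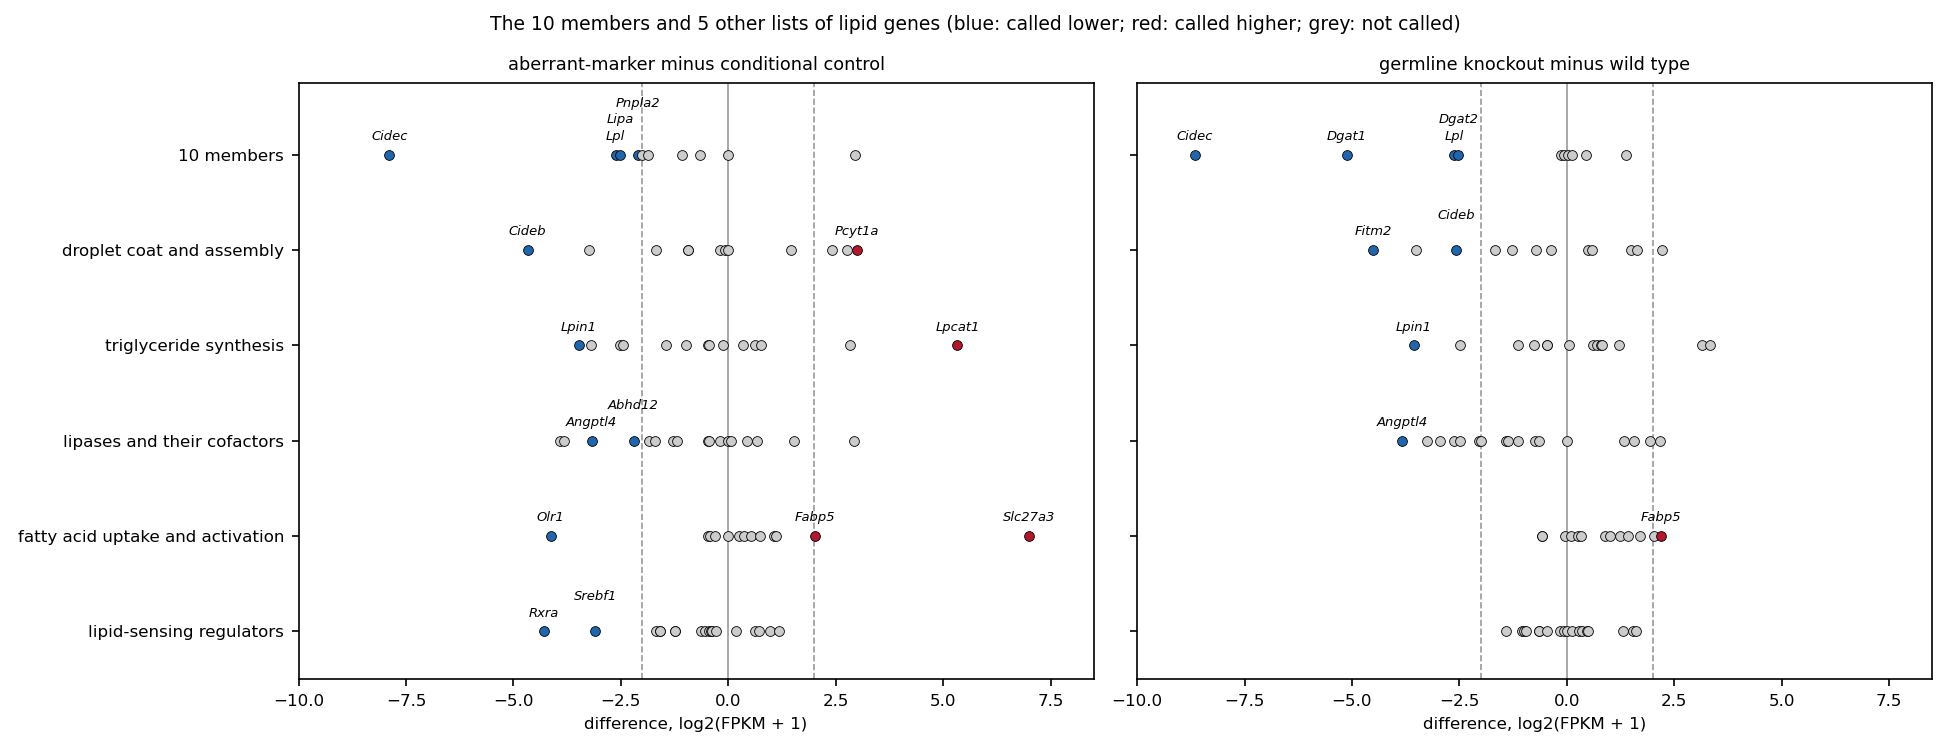
Differences in log2(FPKM + 1) of the 10 genes and of the genes of 5 other lists, in the aberrant-marker library against the conditional control (left) and the germline knockout against the wild type (right); each dot is a gene, blue where called lower, red where called higher and grey otherwise. Cideb, Lpin1 and Angptl4 are blue and Fabp5 is red on both sides, while Rxra, Srebf1 and Olr1 are blue on the left. The differences of Fabp5 are within the yardstick on both sides.

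Markers of adipocytes, the cells best known for Cidec and Plin1, were nearly absent. Adipoq, Lep, Cfd, Retn and Adrb3 were listed at 0 in all 5 libraries. Of the 9 markers at most 1 was at 1 FPKM or more in any library. Plin1, the droplet coat gene of adipocytes, was at 10.5 FPKM in the wild type and listed at 0 in the other 4 libraries.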

How the data were processed

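RNA of alveolar macrophages was sequenced in 10 samples, 2 per group. The deposited table holds 45913 RefSeq transcripts; its header names no unit, and the authors' values were read as FPKM from their sums and ranges. Bowtie 1.1.2 and eXpress 1.5.1 are named, without a role, per the submitters' processing notes. Genome build, filters and pooling: not given in the sources consulted. All 10 columns were matched to sample titles, and 0 were left out.

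Transcript values were added up per Entrez gene (Python 3.11.15, pandas 2.3.3, numpy 2.4.6). A gene was compared if it reached 1 FPKM in 2 or more columns (11336 genes), and 1 FPKM was added before taking log2. The columns of a group were averaged to 1 library, and a rule of size replaced a test: 2 log2 units in the mean and in all run pairings, and 20 FPKM in the higher library. A gene is listed at 0 where both runs are under 0.001 FPKM. Depth was estimated from the steps of low values of genes with 1 transcript over 1500 bases (GENCODE M21 lengths, 30526 transcripts); it is approximate, and no counts were used.

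The 10 genes, the lists, the rule and the alternatives were chosen with earlier results of these data known. Genes named were the 10 members, up to 3 called genes per list, direction and comparison, 14 listed genes whatever their change, and the 3 nearest profiles of members spanning 2 log2 units. Values of other libraries were added for some of them after they were seen. Alternatives were pseudocount, filter, threshold, floor, scaling, transcript choice, single runs and the other control.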

Additional observations from a re-analysis of the deposited data

Results flagged for a closer look

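In 5 cases a gene differed one way in every run pairing of one knockout comparison and the opposite way in every pairing of the other. Run pairings repeat the same libraries, so they do not measure the spread between libraries. The difference between the comparisons was not tested, and each rests on 1 library a group. Mgll was at -1.87 log2 units in the aberrant-marker library against its control and at 0.44 in the germline knockout against the wild type, which are -2.31 apart. Lipa was at -2.52 and 0.11 in the same comparisons, -2.63 apart. For the normal-marker library against its control and the germline knockout against the wild type, Dgat1 was at 1.32 and -5.12, 6.44 apart, Dgat2 was at 0.29 and -2.52, 2.81 apart, and Lpl was at 0.48 and -2.63, 3.11 apart. The positive values among them were all short of the rule of size.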

How the results depend on the processing

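Of 480 differences of the 10 genes recomputed under the alternatives, 449 kept their direction and their side of the rule, 15 passed newly and 3 no longer passed. In 13 more, uncalled before and after, the sign turned, while 0 called differences changed sign. Part of the 480 could not change, so these counts do not measure robustness. All 10 genes passed the filter, so the 50 differences recomputed without it stayed the same by construction. Another threshold or floor cannot turn a sign, and for the 4 genes with 1 transcript the choice of transcript changes nothing. Among the 13 were Awat1 in the aberrant-marker library (-1.05), Dgat1 (-0.14) and Pnpla2 (0.20) in the normal-marker library, all against the wild type, Lipa in the germline knockout against the conditional control (-0.22), and Mgll in the wild type with its highest transcript alone (1.17). Those that no longer passed were Pnpla2 in the aberrant-marker library, at -2.02 log2 units after scaling by the median of ratios and at -1.46 against the wild type, and Dgat1 in the germline knockout against the conditional control, at -3.66. With run 2 of each library alone, Dgat2 was called lower in the aberrant-marker library, at -2.19.

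Counts grew by construction with a looser rule. At a threshold of 1 log2 unit, of all 11336 genes 975 were higher and 1035 lower in the aberrant-marker library against the conditional control (7 of the 10 genes lower, 0 higher). In the normal-marker library 379 and 458 were (2 of the 10 higher, Awat1 and Dgat1, and 1 lower, Cidec). Between the fractions the counts were 1051 and 928 (9 of the 10 lower, 0 higher), and in the germline knockout 695 and 1018 (1 of the 10 higher, Awat1, and 4 lower). In the wild type against the conditional control they were 432 and 470 (2 of the 10 higher). With a floor of 5 FPKM the counts were 1097 and 1083 (1 of the 10 higher, Awat1), 490 and 574, 1162 and 1003, 914 and 1012, and 484 and 714 in the same order. The other 49 differences of the 10 genes kept their call under that floor. Scaling to a common total makes values larger against the same floor: it gave 205 and 206 genes in the normal-marker library, 562 lower between the fractions, 627 lower in the germline knockout, 230 and 265 in the wild type, and 1 of the 10 higher (Awat1) in the aberrant-marker library. Against the wild type, 164 genes were lower in the normal-marker library, with 1 of the 10 lower (Cidec, -2.08), and against the conditional control 1 of the 10 was higher in the germline knockout (Awat1, 5.39).

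The median difference of genes at 20 FPKM or more in the germline knockout was -0.14 log2 units, -0.28 after scaling to a common total and -0.04 after scaling by the median of ratios, beside -0.11 for the 10 genes as reported. No paired analysis was possible because the labels number the samples 1 to 10 through the series, so groups share no replicate number. With 1 library per group, mice and libraries cannot be told apart, and the 2 runs measure sequencing alone. Depth sets a floor of a few reads under the low values of Cidec and Awat1.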
